A study of Mus musculus with 12 samples.

Results

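The RNA of Polycomb repressive complex 2 (PRC2) and of its partners was measured in mouse embryonic stem cells (mESCs) without the nucleosome-binding proteins HMGN1 and HMGN2. The 10 genes were taken by symbol (Ezh1, Ezh2, Eed, Suz12, Jarid2, Mtf2, Phf19, Cbx7, Ring1 and Rnf2), and each was found among the 23412 genes counted. The cells were male v6.5 mESCs kept on gelatin in medium with serum and LIF, and poly-A RNA was sequenced from 3 biological replicates of each of 4 genotypes: WT, Hmgn1-/-, Hmgn2-/- and Hmgn1-/-Hmgn2-/-. Each knockout line was 1 clone grown from a single edited cell, and the double knockout was made from the Hmgn2-/- line, so the effect of a genotype and that of its clone cannot be told apart. The 12 libraries held 17337908 to 31448468 counts, and the 10 genes together took 0.202% to 0.235% of the counts of a library.

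PRC2 methylates histone H3 at lysine 27 (H3K27), a mark that keeps developmental genes silent in embryonic stem cells. Its core joins a methyltransferase, EZH2 or the less active EZH1, to SUZ12, the scaffold, and EED, which binds the mark and stimulates the enzyme. MTF2 and PHF19 lead one form of the complex to CpG-rich DNA, JARID2 belongs to another form, and the separate PRC1 complexes, built on the ubiquitin ligases RING1 and RNF2, can be brought to methylated H3K27 by CBX7.

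The genotypes were first read from the targeted genes. Hmgn1 was at 663, 600 and 614 CPM (counts relative to the library total, scaled by TMM factors) in WT, 138, 139 and 141 in Hmgn1-/-, 545, 556 and 640 in Hmgn2-/- and 21.5, 19.9 and 21.4 CPM in Hmgn1-/-Hmgn2-/- mESCs. Hmgn2 was at 137, 123 and 120 CPM in WT, 105, 113 and 109 in Hmgn1-/-, 50.7, 54.5 and 53.8 in Hmgn2-/- and 53.9, 50.5 and 54.2 CPM in Hmgn1-/-Hmgn2-/- mESCs. Each targeted gene was below every WT library in the lines labelled as lacking it, although some of its RNA was still counted there. Hmgn1 fell in Hmgn1-/- (log2 fold change, FC, of -2.16, adjusted p = 3.36e-11 in edgeR's quasi-likelihood test) and in double knockout mESCs (-4.89, adjusted p = 8.56e-15), and was at -0.10 in Hmgn2-/- mESCs (0.493). Hmgn2 fell in Hmgn2-/- (-1.24, adjusted p = 5.73e-06) and in double knockout mESCs (-1.25, adjusted p = 1.95e-08), and was at -0.21 in Hmgn1-/- mESCs (0.0275). Hmgn1 RNA was lower in the double knockout than in Hmgn1-/- mESCs, without overlap. The libraries had the pluripotency factor Pou5f1 at 1647 to 2168 CPM, as a stem cell label requires.

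Among the 10 genes, levels per kilobase of the principal transcript (TMM-scaled CPM per kb, mean of 3 WT libraries ± SD) ran from 131 ± 8.45 for Eed to 6.44 ± 0.539 for Ring1. Jarid2 followed Eed at 118 ± 8.97 CPM per kb, and the ranges of these 2 genes overlapped. Cbx7 was at 79.1 ± 1.61, Mtf2 at 73.0 ± 1.60, Ezh2 at 59.5 ± 1.73, Suz12 at 45.8 ± 1.15 and Rnf2 at 39.8 ± 1.69 CPM per kb, each outside the range of the next. Ezh1 (6.89 ± 0.372), Phf19 (6.61 ± 1.53) and Ring1 formed the low end with ranges that overlapped. The knockout lines kept this order for the first 8 genes, and there Phf19 came last, below Ring1.

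Each knockout was compared with WT mESCs to ask whether the RNA of these chromatin regulators changed, and all 3 comparisons used the same 3 WT libraries. A gene was called at an adjusted p under 0.01 in edgeR's quasi-likelihood test, which was adjusted over all genes that passed a filter on low counts. All 10 genes passed that filter in every comparison. In Hmgn1-/- mESCs, 1 of the 10 (Phf19) was called lower and 0 were called higher, where 10.1% and 7.28% of all 13917 genes tested were called (17.3% in either direction). In Hmgn2-/- mESCs, 0 of 10 were called in edgeR, 0 in DESeq2 and 2 passed an unadjusted p under 0.05, where 6.66% of 14047 genes were called lower and 3.30% higher (9.97% together). In Hmgn1-/-Hmgn2-/- mESCs, 2 of 10 (Eed and Jarid2) were called higher and 0 lower, where 7.79% and 10.2% of 14128 genes were called (18.0% together). These counts lay near the background rates.

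The differences were small on the log2 scale. With a log2 FC of at least 1 in size also required, 0 of 10 genes passed in each of the 3 comparisons in edgeR and in DESeq2, against 5.98%, 5.15% and 6.30% of all genes in Hmgn1-/-, Hmgn2-/- and Hmgn1-/-Hmgn2-/- mESCs. At an unadjusted p under 0.05 and no limit on the fold, 7, 2 and 5 of the 10 passed, against 38.7%, 31.0% and 38.9% of all genes tested. The median log2 FC of the 10 genes was 0.13, 0.12 and 0.11 in these lines, against 0.00, 0.01 and 0.00 over all genes tested, and 6 of 10 values were above 0 in each line, also under the other scalings tried. All libraries of a knockout lay on the same side of all WT libraries for 8, 3 and 4 of the 10 genes, against 42.0%, 35.8% and 42.4% of all genes tested.

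**Figure D1:**
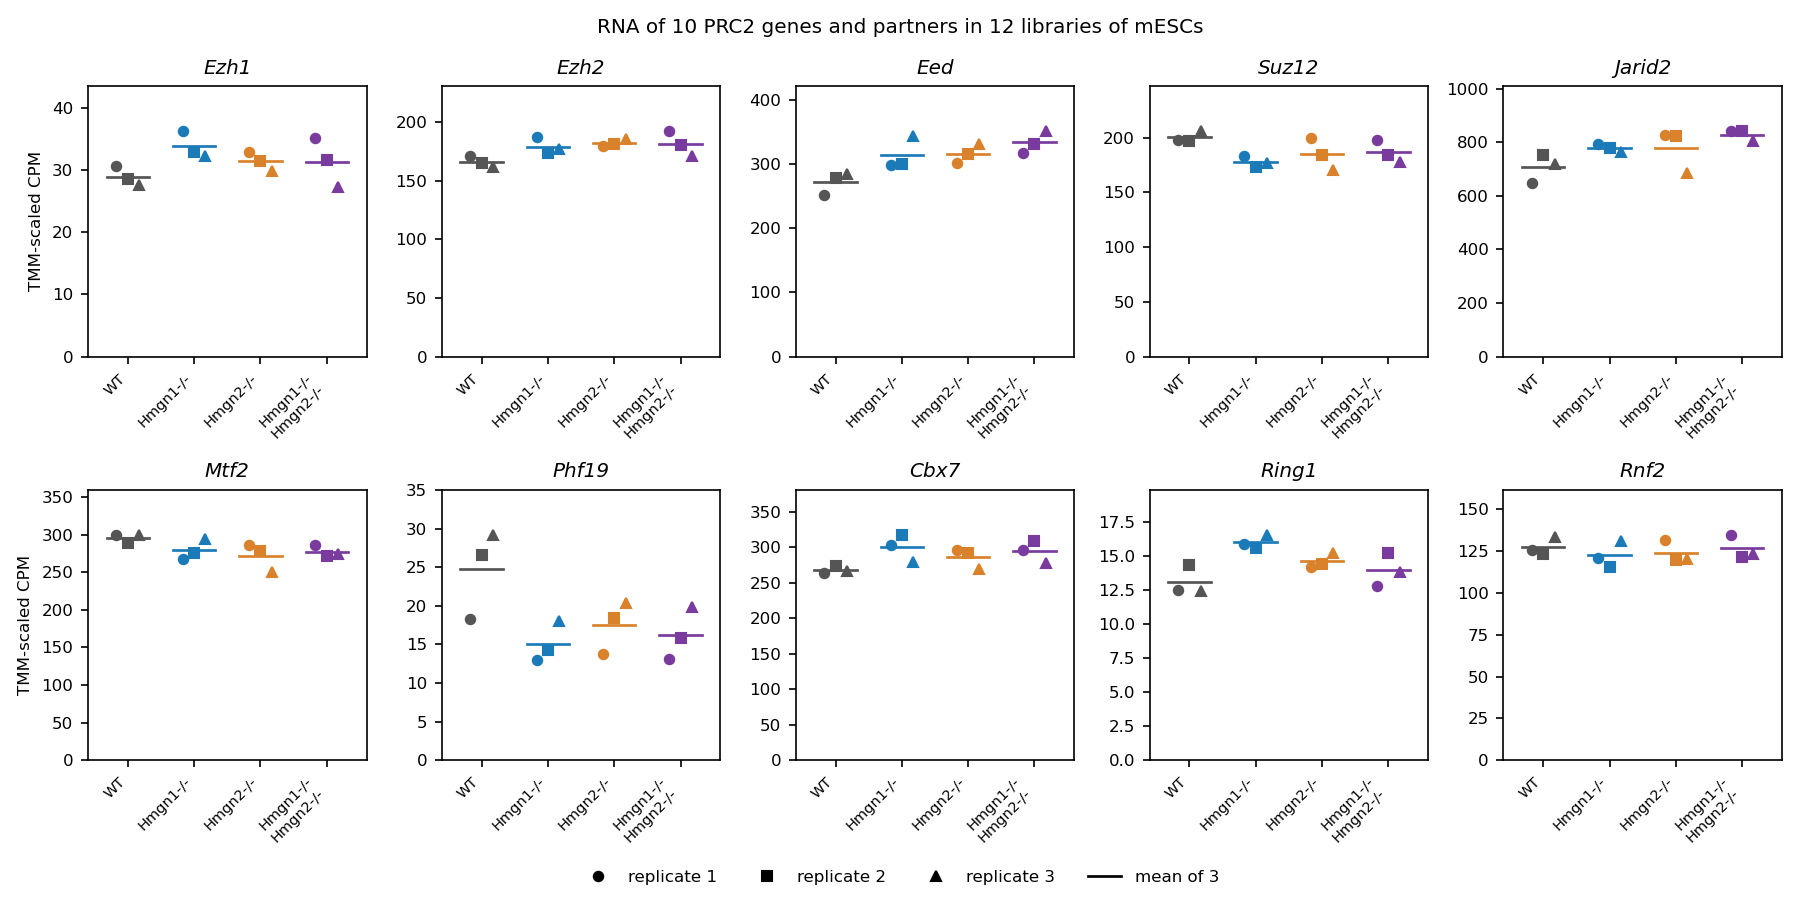
TMM-scaled CPM of each of the 10 genes in the 12 libraries, with 1 point per library, its shape giving the replicate number, and a line at the mean of 3. Phf19 spans 18.3 to 29.2 CPM in WT and 13.0 to 20.3 CPM in the knockout lines, and Eed lies above all 3 WT libraries in each of the 9 knockout libraries.

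In the core of PRC2, Eed was the gene called. Eed was at 251, 277 and 284 CPM in WT, 298, 300 and 343 in Hmgn1-/-, 302, 315 and 331 in Hmgn2-/- and 317, 332 and 351 CPM in Hmgn1-/-Hmgn2-/- mESCs. All 9 knockout libraries were above all 3 WT libraries, and the 3 knockout lines overlapped each other. Eed rose in the double knockout by a log2 FC of 0.30 ± 0.06 (SE, n = 3 against 3, adjusted p = 0.00191 in edgeR), a change of 23.4%. In Hmgn1-/- mESCs its log2 FC was 0.22 (adjusted p = 0.0256 in edgeR, and 0.00259 with replicate numbers as a block), and in Hmgn2-/- mESCs it was 0.23 (adjusted p = 0.0623). The call in the double knockout was lost without its replicate 2 (adjusted p = 0.0118) and without its replicate 3 (adjusted p = 0.0110), and over the 15 alternatives the log2 FC ran from 0.25 to 0.34. In bulk RNA, fewer cells of a type and less RNA per cell cannot be told apart.

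The methyltransferase genes did not pass the test in a comparison with WT mESCs. Ezh2 was at 171, 165 and 161 CPM in WT, 187, 173 and 177 in Hmgn1-/-, 180, 181 and 185 in Hmgn2-/- and 192, 181 and 171 CPM in Hmgn1-/-Hmgn2-/- mESCs. Its log2 FC was 0.12, 0.14 and 0.13 against WT (adjusted p = 0.139, 0.193 and 0.109 in edgeR), and the double knockout overlapped WT while the single knockouts did not. Ezh1, the paralog that prevails in resting cells, was at 30.6, 28.5 and 27.5 CPM in WT, 36.3, 32.9 and 32.2 in Hmgn1-/-, 33.0, 31.4 and 29.8 in Hmgn2-/- and 35.1, 31.6 and 27.2 CPM in Hmgn1-/-Hmgn2-/- mESCs. The Hmgn1-/- libraries were above WT without overlap (log2 FC 0.23, adjusted p = 0.0494), and the other lines overlapped WT (log2 FC 0.13 and 0.12, adjusted p = 0.389 and 0.383). Over 15 alternatives the log2 FC of Ezh1 ran from 0.18 to 0.27 in Hmgn1-/-, 0.07 to 0.17 in Hmgn2-/- and 0.03 to 0.21 in double knockout mESCs.

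The balance of the 2 enzymes was read as a ratio within a library, which needs no scaling between libraries. Ezh2 exceeded Ezh1 per kilobase by 8.64 ± 0.212 times in WT, 7.98 ± 0.240 in Hmgn1-/-, 8.74 ± 0.587 in Hmgn2-/- and 8.76 ± 0.610 times in Hmgn1-/-Hmgn2-/- mESCs (SD, n = 3). The Hmgn1-/- libraries (7.78 to 8.25) lay below the WT libraries (8.41 to 8.82), and the other 2 lines spanned the WT range. The ratios of these enzymes were not tested.

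Suz12, the scaffold, was at 198, 197 and 206 CPM in WT, 183, 173 and 177 in Hmgn1-/-, 199, 185 and 170 in Hmgn2-/- and 198, 184 and 178 CPM in Hmgn1-/-Hmgn2-/- mESCs. It was the core gene with lower means in the knockout lines, and it overlapped WT in Hmgn2-/- and in double knockout mESCs but not in Hmgn1-/- mESCs. Its log2 FC was -0.17 in Hmgn1-/- (adjusted p = 0.0290 in edgeR), -0.11 in Hmgn2-/- (adjusted p = 0.411) and -0.10 in Hmgn1-/-Hmgn2-/- mESCs (adjusted p = 0.235).

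**Figure D2:**
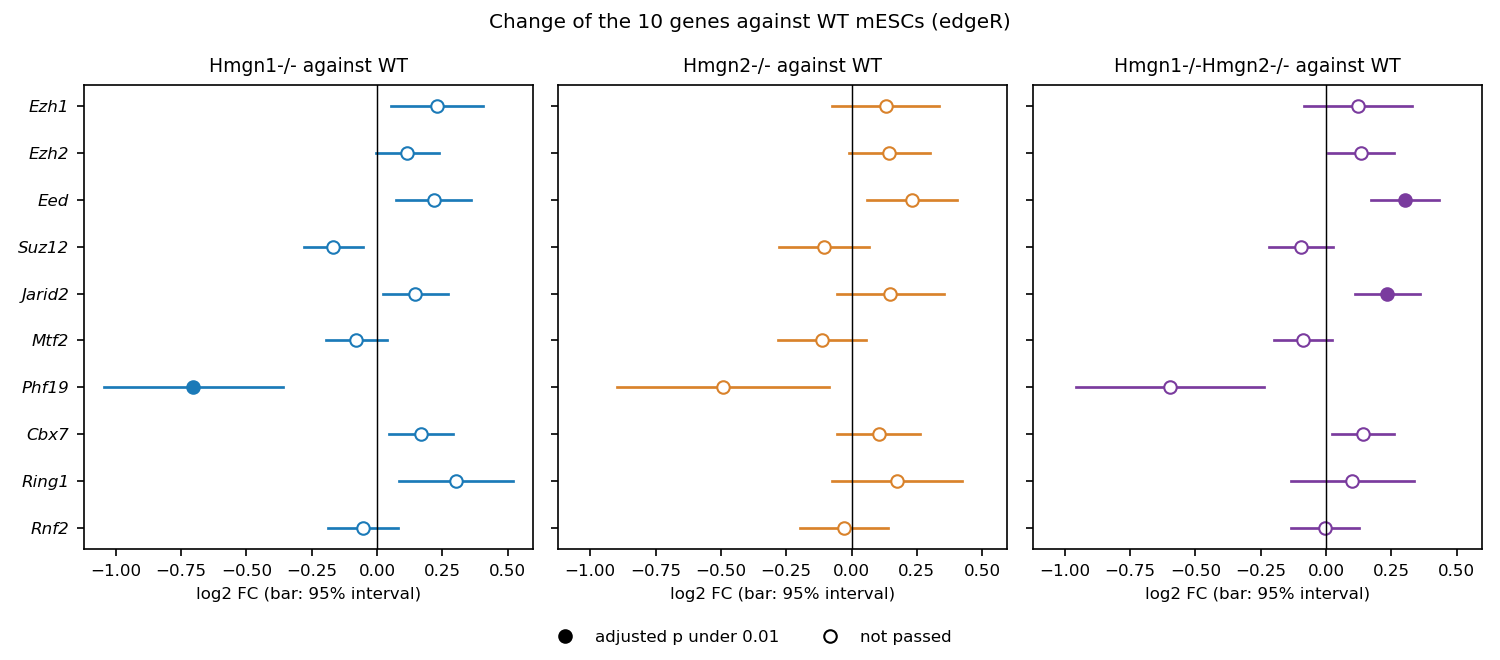
Log2 FC of the 10 genes in each knockout line against WT mESCs from edgeR (n = 3 against 3), with bars for the 95% interval and filled points for an adjusted p under 0.01. The filled points are Phf19 in Hmgn1-/- (-0.70) and Eed (0.30) and Jarid2 (0.23) in Hmgn1-/-Hmgn2-/- mESCs.

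The 3 genes with a call, Phf19, Eed and Jarid2, are shown by their promoters, since their RNA moved while that of the other 7 did not pass. The sequences are from RefSeq (GRCm38.p6), which gave windows for all 10 genes, and run 5′ to 3′ on the strand of the gene from 250 bases before to 50 after an annotated start. They lie at chr2:34913927-34914226 (-) for Phf19, chr7:89980927-89981226 (-) for Eed and chr13:44730524-44730823 (+) for Jarid2. Capitals mark an 8-base motif like those bound by E2F factors.
Phf19: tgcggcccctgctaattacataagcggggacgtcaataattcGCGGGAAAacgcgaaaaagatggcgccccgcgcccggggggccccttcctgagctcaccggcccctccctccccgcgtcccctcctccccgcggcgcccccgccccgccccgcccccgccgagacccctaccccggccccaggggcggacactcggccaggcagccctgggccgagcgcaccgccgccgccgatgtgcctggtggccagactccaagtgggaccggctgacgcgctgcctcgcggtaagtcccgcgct
Eed: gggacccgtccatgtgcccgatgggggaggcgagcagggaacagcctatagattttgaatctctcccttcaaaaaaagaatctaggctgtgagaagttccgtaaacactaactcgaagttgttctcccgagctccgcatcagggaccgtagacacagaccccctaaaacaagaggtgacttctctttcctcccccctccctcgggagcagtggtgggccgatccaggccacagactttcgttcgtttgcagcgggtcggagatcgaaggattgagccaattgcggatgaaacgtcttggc
Jarid2: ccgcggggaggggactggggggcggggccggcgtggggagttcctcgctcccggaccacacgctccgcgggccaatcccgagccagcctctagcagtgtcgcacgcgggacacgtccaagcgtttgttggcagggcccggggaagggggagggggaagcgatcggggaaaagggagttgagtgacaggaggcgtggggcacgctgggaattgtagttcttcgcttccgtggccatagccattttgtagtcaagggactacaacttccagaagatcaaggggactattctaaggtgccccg
The motifs searched on both strands were TTTCCCGC, TTTGGCGC, TTTCGCGC and TTTGCCGC, and 2.28% of 32544 mouse promoter windows of that length held at least 1 of them. The Phf19 window held TTTCCCGC as its reverse complement GCGGGAAA, a motif of 1.08% of the windows, and the windows of Ezh2 (TTTGGCGC, 0.519%) and Suz12 (TTTCCCGC) held 1 as well. The Phf19 window had 38 CpG dinucleotides and 74.3% G and C, the Jarid2 window 24 and 64.3%, and the Eed window 17 and 54.7%, against medians of 7 and 53% over all windows. First windows of the other genes, which were not called, had from 23 (Ezh1) to 41 (Suz12) CpG dinucleotides and from 59.3% (Ezh1) to 74.0% (Ring1) G and C. A further window of Jarid2, not shown, had 23 and 62.7%.

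Among the accessory subunits, Phf19 had the widest range of group means of the 10 genes (0.69 on the log2 scale). Phf19 spans chr2:34893752-34914353 (GRCm38, RefSeq), and its protein reads methylated H3K36 and binds CpG-rich DNA. It was at 18.3, 26.6 and 29.2 CPM in WT, 13.0, 14.3 and 18.0 in Hmgn1-/-, 13.7, 18.4 and 20.3 in Hmgn2-/- and 13.1, 15.8 and 19.8 CPM in Hmgn1-/-Hmgn2-/- mESCs. WT replicate 1 (585 counts) stood below the other 2 WT libraries and below 3 knockout libraries, and in each genotype replicate 1 held the lowest value. Hmgn1-/- and WT libraries did not overlap, by a margin of 18.0 against 18.3 CPM, while the other 2 lines overlapped WT.

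Phf19 fell in Hmgn1-/- mESCs by a log2 FC of -0.70 ± 0.16 (SE, n = 3 against 3, adjusted p = 0.00437 in edgeR), a change of -38.6%, and was lower in 3 of 3 libraries than in each WT library. In double knockout mESCs its log2 FC was -0.60 (adjusted p = 0.0157 in edgeR, and 0.000113 with replicate numbers as a block), and in Hmgn2-/- mESCs it was -0.49 (adjusted p = 0.0911). The call in Hmgn1-/- mESCs was lost without WT replicate 2 (adjusted p = 0.0191), without WT replicate 3 (0.0206), without Hmgn1-/- replicate 1 (0.0348), without Hmgn1-/- replicate 2 (0.0208) and with all 12 libraries in a single fit (0.0132), and the log2 FC ran from -0.89 to -0.56 over the 15 alternatives. In the double knockout a call was made without WT replicate 1 (log2 FC -0.79, adjusted p = 7.79e-05) and without double knockout replicate 3 (log2 FC -0.77, adjusted p = 0.00852).

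Mtf2, a Polycomb-like gene as Phf19 is, was at 300, 289 and 300 CPM in WT, 268, 275 and 295 in Hmgn1-/-, 286, 278 and 251 in Hmgn2-/- and 287, 272 and 274 CPM in Hmgn1-/-Hmgn2-/- mESCs. Its means were slightly lower in each knockout line, with log2 FC of -0.08, -0.11 and -0.09 (adjusted p = 0.300, 0.352 and 0.222 in edgeR), none of which passed. Per kilobase, Mtf2 exceeded Phf19 by 11.5 ± 3.14 times in WT, 17.3 ± 1.97 in Hmgn1-/-, 14.9 ± 4.03 in Hmgn2-/- and 16.3 ± 3.76 times in Hmgn1-/-Hmgn2-/- mESCs (SD, n = 3). WT replicate 1, at 15.1 times, was within the range of each knockout line, and WT replicates 2 and 3 (9.98 and 9.44) were below all knockout libraries. By replicate number, which paired Hmgn1-/- and double knockout libraries with WT, each library of these lines was above the WT library of its own number. These ratios were not tested.

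Jarid2, which marks the other form of PRC2 and binds ubiquitinated H2A, was at 648, 754 and 720 CPM in WT, 796, 778 and 766 in Hmgn1-/-, 827, 822 and 686 in Hmgn2-/- and 842, 841 and 804 CPM in Hmgn1-/-Hmgn2-/- mESCs. The Hmgn1-/- and double knockout libraries were above all WT libraries, and Hmgn2-/- replicate 3 lay inside the WT range. Jarid2 rose in the double knockout by a log2 FC of 0.23 ± 0.06 (SE, n = 3 against 3, adjusted p = 0.00797 in edgeR), a change of 17.6%. In Hmgn1-/- mESCs its log2 FC was 0.15 (adjusted p = 0.0775), and in Hmgn2-/- mESCs it was 0.15 (adjusted p = 0.318). Over 15 alternatives these ran from 0.08 to 0.19 and from 0.08 to 0.23, with 0 calls in either line.

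That call for Jarid2 was lost without WT replicate 1 (adjusted p = 0.0197), WT replicate 3 (0.0296), or double knockout replicate 1 (0.0220), 2 (0.0437) or 3 (0.0125), and it was kept in 8 of 15 alternatives, with log2 FC from 0.17 to 0.28. It was also lost with at least 10 counts required in every library (adjusted p = 0.0101) and with all 12 libraries in a single fit (0.0317).

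**Figure D3:**
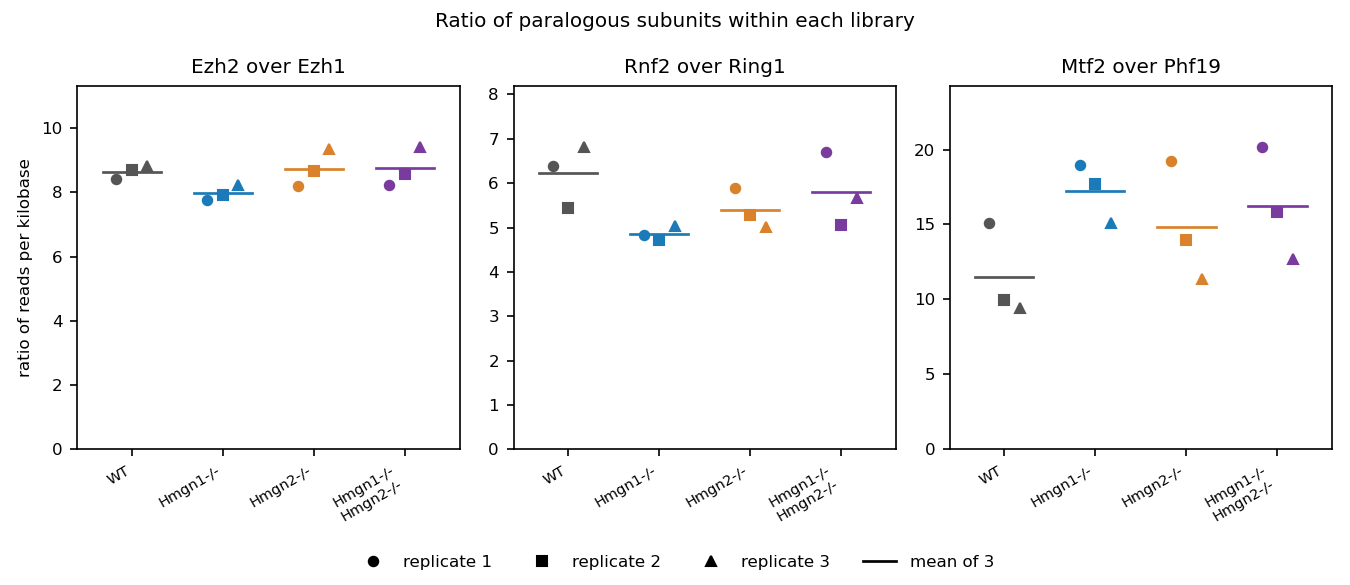
Ratio of reads per kilobase of Ezh2 over Ezh1, Rnf2 over Ring1 and Mtf2 over Phf19 within each of the 12 libraries, with the mean of 3 as a line. Mtf2 over Phf19 runs from 9.44 to 15.1 in WT and from 11.4 to 20.2 in the knockout lines.

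In PRC1, Cbx7, the reader that prevails in embryonic stem cells, was at 264, 274 and 267 CPM in WT, 304, 318 and 279 in Hmgn1-/-, 296, 293 and 270 in Hmgn2-/- and 297, 310 and 278 CPM in Hmgn1-/-Hmgn2-/- mESCs. The Hmgn1-/- and double knockout libraries were above WT without overlap, with log2 FC of 0.17 and 0.14 (adjusted p = 0.0415 and 0.0710 in edgeR), and Hmgn2-/- libraries overlapped WT (0.10, adjusted p = 0.374). Cbx7 shares 2415 bases of its span with Apobec3, a gene at a mean of 2276 counts, and the strand used in counting is not stated, so reads could be shared between them.

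Ring1 was at 12.5, 14.4 and 12.4 CPM in WT, 15.9, 15.6 and 16.6 in Hmgn1-/-, 14.2, 14.4 and 15.3 in Hmgn2-/- and 12.8, 15.3 and 13.9 CPM in Hmgn1-/-Hmgn2-/- mESCs. The Hmgn1-/- libraries were above all other 9 libraries (log2 FC 0.30 against WT, adjusted p = 0.0382 in edgeR), while Hmgn2-/- (0.17, adjusted p = 0.336) and double knockout libraries (0.10, adjusted p = 0.538) overlapped WT. Rnf2, its paralog and the main H2A ligase of these cells, was at 126, 123 and 134 CPM in WT, 121, 116 and 131 in Hmgn1-/-, 132, 120 and 120 in Hmgn2-/- and 135, 122 and 123 CPM in Hmgn1-/-Hmgn2-/- mESCs. Rnf2 overlapped WT in every line, with log2 FC of -0.05, -0.03 and -0.01 and a 95% interval in the double knockout from -0.14 to 0.13. Per kilobase, Rnf2 exceeded Ring1 by 6.22 ± 0.705 times in WT, 4.85 ± 0.160 in Hmgn1-/-, 5.39 ± 0.447 in Hmgn2-/- and 5.81 ± 0.828 times in Hmgn1-/-Hmgn2-/- mESCs (SD, n = 3), and the Hmgn1-/- libraries (4.71 to 5.03) lay below all WT libraries (5.45 to 6.83).

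The knockout lines were then compared with each other, to ask whether losing 1 or both HMGN proteins made a difference to the 10 genes. In edgeR 0 of 10 were called between Hmgn2-/- and Hmgn1-/- mESCs, 0 between double knockout and Hmgn1-/- and 0 between double knockout and Hmgn2-/- mESCs, where 0.352%, 1.09% and 0.0434% of all genes were called. DESeq2 also called 0 in each, and 0 passed an unadjusted p under 0.05 in each, against 3.20%, 9.53% and 4.44% of all genes. With replicate numbers as a block, 0 of 10 were called in edgeR in the pair of comparisons with Hmgn2-/- mESCs, where the numbers paired the libraries. The log2 FC of Phf19 was 0.10 between double knockout and Hmgn1-/- mESCs, with a 95% interval from -0.21 to 0.42, and that of Eed was 0.09, from -0.05 to 0.22. That of Jarid2 was 0.09 (adjusted p = 0.611). Between double knockout and Hmgn2-/- mESCs the values were -0.10 for Phf19, 0.08 for Eed and 0.09 for Jarid2, and Phf19 was at 0.21 between Hmgn2-/- and Hmgn1-/- mESCs. The calls against WT mESCs were thus not shown to differ between the lines.

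The double knockout was also set against the sum of the single knockouts on the log2 scale, a departure from additivity tested over all 12 libraries. In edgeR without a replicate block 0 of 10 genes were called, against 6.32% of 14323 genes, DESeq2 called 0, and 2 passed an unadjusted p under 0.05, against 25.9% of all genes. These 2 were Phf19, with a departure of 0.61 (95% interval 0.03 to 1.19, adjusted p = 0.170), and Ring1, with -0.37 (95% interval -0.66 to -0.08, adjusted p = 0.0946). The result for Phf19 depended on that block, as given with the alternatives below. Its positive value means that its RNA was less reduced in the double knockout than the single knockouts add up to.

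Since Phf19 varied most, the 5 genes most like it over the 12 libraries were taken by likeness of log2 CPM (Pearson's r, over 11554 genes that averaged 50 counts or more). They were Perp (0.974), Chchd5 (0.968), Esd (0.958), Jmjd4 (0.952) and Cpxm1 (0.947), and the values are descriptions over libraries that share genotype and replicate number. In Hmgn1-/- against WT mESCs their log2 FC were -0.76 for Perp, -0.22 for Chchd5, -0.42 for Esd, -0.42 for Jmjd4 and -0.44 for Cpxm1. With replicate numbers as a block the adjusted p of Cpxm1 was 0.00196, against 0.0152 without. Since the 5 were picked by these libraries, their likeness to Phf19 in any of them follows from the choice.

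**Figure D4:**
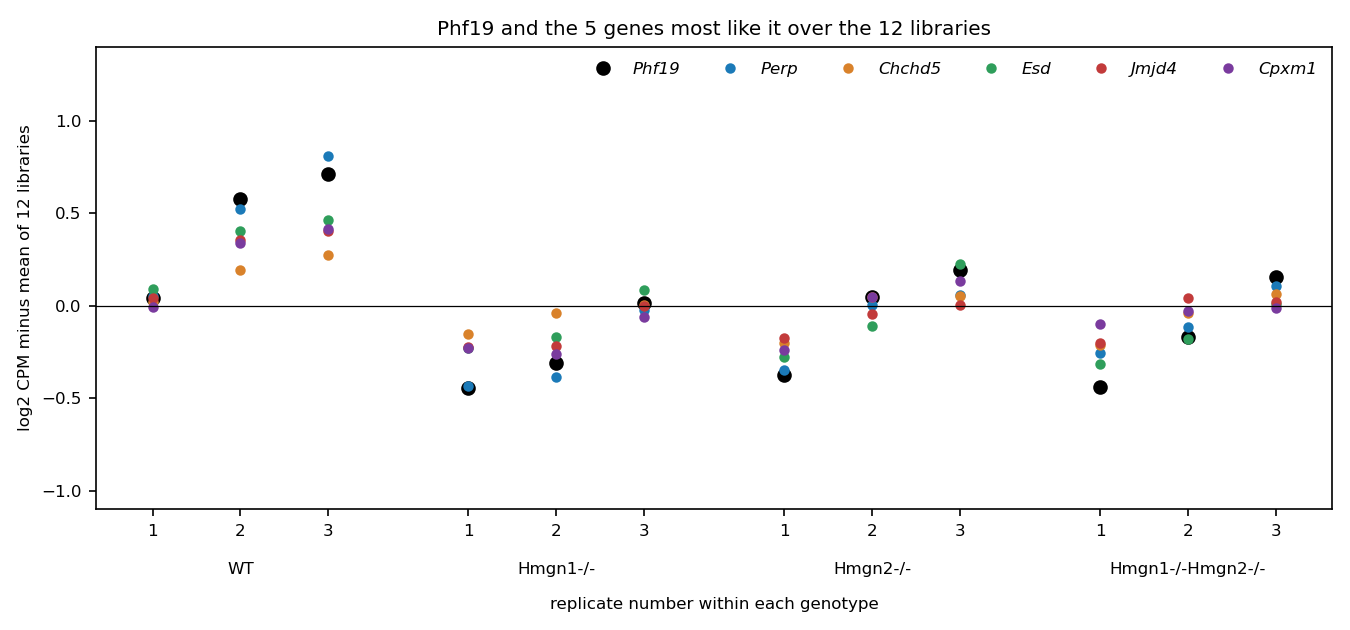
Log2 CPM of Phf19 and of the 5 genes most like it, minus the mean of each gene over 12 libraries, by genotype and replicate number. Phf19 was 0.71 above its mean in WT replicate 3 and 0.04 above it in WT replicate 1, and the other 5 genes were picked for their likeness to Phf19 over these same libraries.

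The rest of the Polycomb machinery was described from 3 lists with 33 genes, all of which passed the filter. In Hmgn1-/- mESCs 1 rose and 2 fell, in Hmgn2-/- mESCs 0 rose and 1 fell, and in double knockout mESCs 1 rose and 2 fell. That was 3, 1 and 3 of 33, where 17.3%, 9.97% and 18.0% of all genes were called, and the median log2 FC of the 33 was 0.02, -0.01 and 0.00. Of the 7 other PRC2 subunits 0 were called in each comparison in edgeR, 0 in DESeq2, and 2, 0 and 1 passed an unadjusted p under 0.05, where 38.7%, 31.0% and 38.9% of all genes passed. The smallest p among them was that of Aebp2, a cofactor found with JARID2, with log2 FC of -0.21 (adjusted p = 0.0198), -0.19 (0.171) and -0.17 (0.0379). E130012A19Rik, the older symbol of Epop, had a log2 FC of -0.24 in Hmgn1-/- mESCs (adjusted p = 0.101), which was -0.39 without WT replicate 1 (1.32e-05), and Rbbp7, a histone-binding subunit, 0.15 in Hmgn2-/- (0.242) and 0.12 in double knockout mESCs (0.131). Blocking on replicate numbers in Hmgn1-/- mESCs gave adjusted p = 0.00608 for Aebp2 and 0.00917 for E130012A19Rik, and Aebp2 passed there after thinning to the depth of the smallest library (0.00814) and without WT replicate 1 (0.00901).

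Of 19 other PRC1 subunits, Bcor was the one called, and it was called in each comparison. Bcor, which assembles a variant PRC1 that lacks CBX proteins, was at 62.6, 89.6 and 82.9 CPM in WT, 49.7, 54.0 and 46.3 in Hmgn1-/-, 49.7, 53.3 and 41.5 in Hmgn2-/- and 51.6, 49.0 and 46.6 CPM in Hmgn1-/-Hmgn2-/- mESCs. All 9 knockout libraries were below all 3 WT libraries. Bcor fell with a log2 FC of -0.64 ± 0.11 in Hmgn1-/- (adjusted p = 0.000548 in edgeR), -0.69 ± 0.13 in Hmgn2-/- (0.00460) and -0.67 ± 0.11 in double knockout mESCs (0.000325; SE, n = 3 against 3). In Hmgn2-/- mESCs the call was lost without WT replicate 2 (adjusted p = 0.0281), WT replicate 3 (0.0273) or Hmgn2-/- replicate 2 (0.0109), so that 0 of the 33 genes were then called, and the count was 2 without Hmgn2-/- replicate 1 and 3 without Hmgn2-/- replicate 3. Kdm2b, which brings that variant to CpG islands, had a log2 FC of 0.31 in the double knockout (adjusted p = 0.0141, and 0.00401 with replicate numbers as a block). Its level was 138, 177 and 177 CPM in WT against 205, 209 and 191 CPM in double knockout mESCs, so the size of this difference leans on WT replicate 1. Scmh1 was at 0.24 in Hmgn1-/- (adjusted p = 0.0504) and L3mbtl2 at -0.17 in Hmgn2-/- mESCs (0.170). Without WT replicate 1 the count over the 33 genes was 5 in Hmgn1-/- and 5 in double knockout mESCs, with Aebp2 (adjusted p = 0.00901) and E130012A19Rik (1.32e-05) added in the first and E130012A19Rik (log2 FC -0.23, adjusted p = 0.00753) and 1 more gene in the second.

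The enzymes that remove Polycomb marks held the other calls. Kdm6a, an H3K27 demethylase, was at 77.4, 90.5 and 84.9 CPM in WT, 63.7, 63.2 and 60.7 in Hmgn1-/-, 65.8, 64.3 and 46.9 in Hmgn2-/- and 69.1, 58.8 and 58.4 CPM in Hmgn1-/-Hmgn2-/- mESCs. Bap1, an H2A deubiquitinase, was at 125, 139 and 128 CPM in WT, 163, 165 and 159 in Hmgn1-/-, 162, 162 and 152 in Hmgn2-/- and 161, 158 and 158 CPM in Hmgn1-/-Hmgn2-/- mESCs. Kdm6a lay below WT and Bap1 above WT in all 9 knockout libraries. Kdm6a fell in Hmgn1-/- (log2 FC -0.42 ± 0.07, adjusted p = 0.000354 in edgeR) and in double knockout mESCs (-0.43 ± 0.08, adjusted p = 0.00105), and was at -0.50 in Hmgn2-/- mESCs (adjusted p = 0.0150). Bap1 rose in Hmgn1-/- (0.32 ± 0.06, adjusted p = 0.000835) and in double knockout mESCs (0.29 ± 0.06, adjusted p = 0.00177), and was at 0.29 in Hmgn2-/- mESCs (adjusted p = 0.0202). The call of Bap1 in the double knockout was lost without WT replicate 3 (adjusted p = 0.0162) or double knockout replicate 2 (0.0109). In Hmgn2-/- mESCs Kdm6a was called without Hmgn2-/- replicate 1 (adjusted p = 0.00641) or 3 (0.00568), and Bap1 without Hmgn2-/- replicate 3 (0.00449). With all libraries kept, both were called there in DESeq2 (adjusted p = 0.00172 and 0.00764) and in edgeR's single fit of 12 libraries (0.00273 and 0.00207). Hmgn2-/- replicate 3 differed more from replicates 1 and 2 (chi-square per degree of freedom of 42.2 and 23.8) than these did from each other (9.30). Tested directly, Hmgn2-/- against Hmgn1-/- mESCs gave -0.08 for Kdm6a and -0.03 for Bap1, neither of which passed (adjusted p = 1.00 for both).

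**Figure D5:**
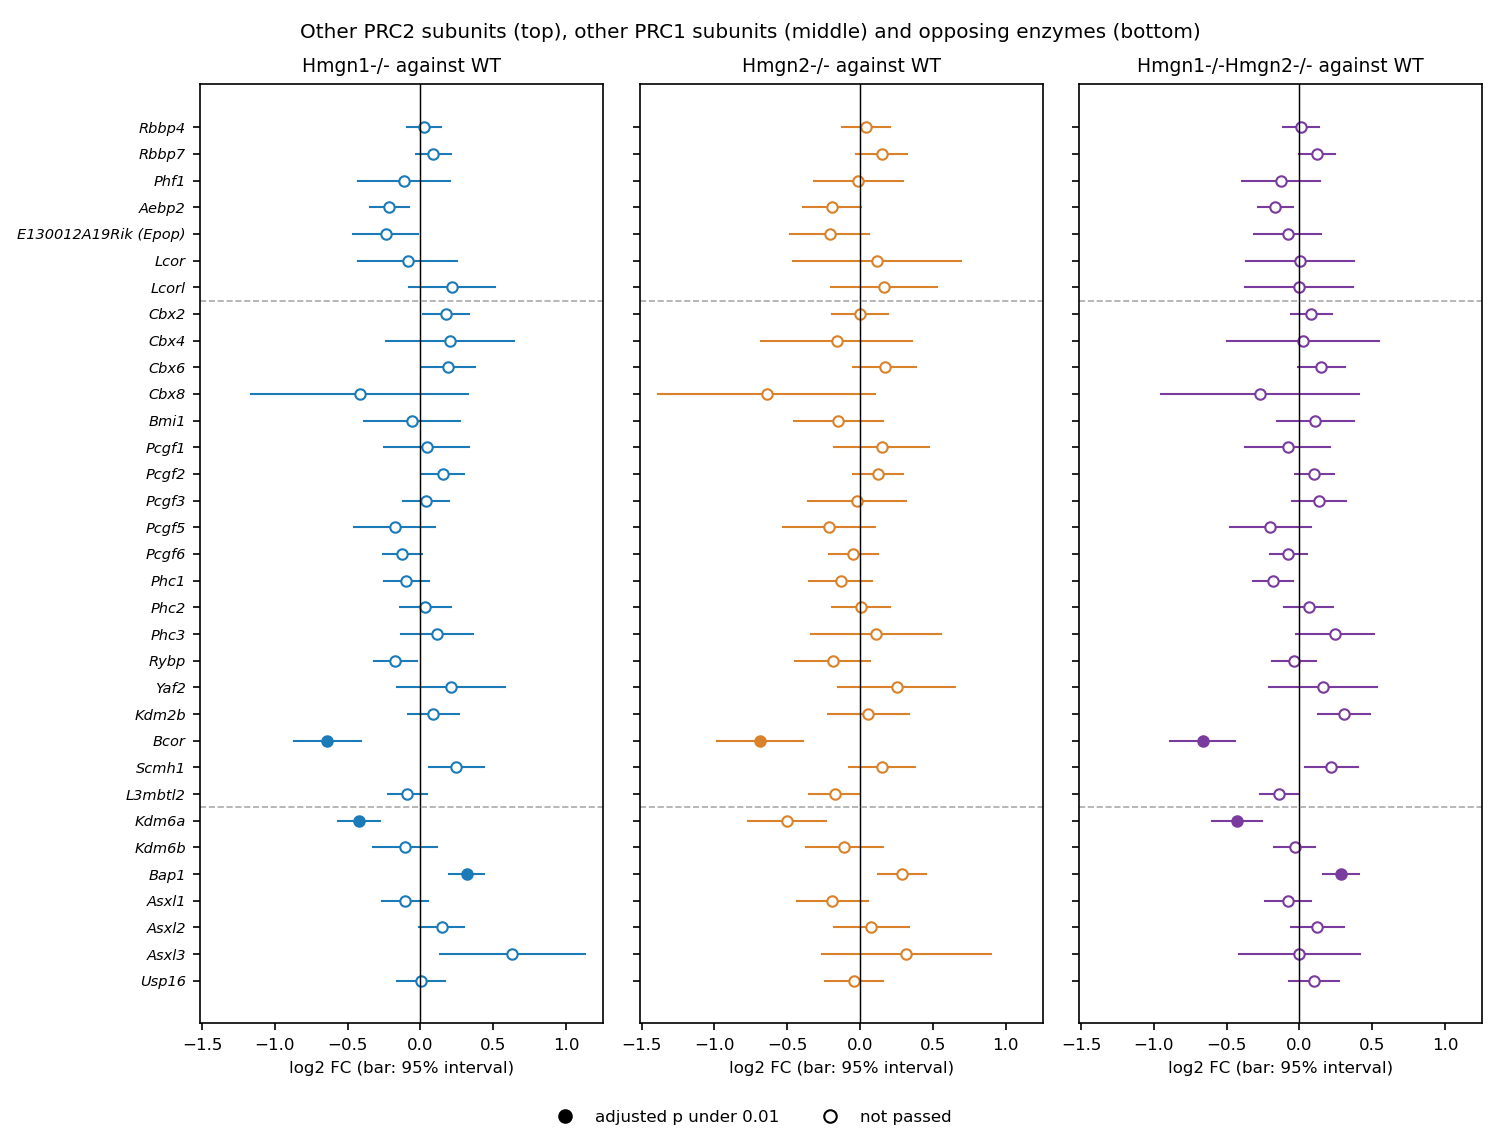
Log2 FC of 33 other Polycomb genes in each knockout line against WT mESCs from edgeR (n = 3 against 3), with bars for the 95% interval and filled points for an adjusted p under 0.01. Bcor (-0.64, -0.69 and -0.67) is filled in the 3 comparisons, and Kdm6a and Bap1 in Hmgn1-/- and Hmgn1-/-Hmgn2-/- mESCs.

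Developmental genes known as Polycomb targets in embryonic stem cells were read from a list of 28, of which 19, 19 and 20 passed the filter in Hmgn1-/-, Hmgn2-/- and double knockout mESCs. In Hmgn1-/- mESCs 5 rose and 3 fell, in Hmgn2-/- 4 rose and 2 fell, and in the double knockout 5 rose and 3 fell, with median log2 FC of -0.26, -0.10 and -0.11. Of all genes, 7.28%, 3.30% and 7.79% were called higher and 10.1%, 6.66% and 10.2% lower. The genes that rose were led by the endoderm regulators Gata4 (2.55, 2.83 and 3.73), Gata6 (2.44, 2.81 and 3.95) and Sox17 (3.37, 3.66 and 4.75), and Foxa2 rose in the double knockout (2.03). Sox17 had 16, 8 and 10 counts in WT and may have passed the filter only through the knockout lines, where it was high. Its rise may thus be partly set by that filter, and it was not tested with at least 10 counts required in every library. Hand1, a mesoderm and trophoblast regulator, fell (-2.51, -1.93 and -2.11), as did the cell cycle inhibitor Cdkn2b (-1.69, -1.32 and -1.40). Named after their values were seen, Olig2 rose in each line (0.74, 0.79 and 0.61), Pax6 rose in Hmgn1-/- mESCs (0.75), and Eomes fell in Hmgn1-/- (-0.65) and double knockout mESCs (-0.69). Where they did not pass, Foxa2 was at 1.12 in Hmgn1-/- (adjusted p = 0.0385 in edgeR) and 0.98 in Hmgn2-/- mESCs (0.0657), Pax6 at 0.27 in Hmgn2-/- (0.359) and 0.40 in double knockout mESCs (0.0832), and Eomes at -0.46 in Hmgn2-/- mESCs (0.0308). Tested directly, the double knockout differed from Hmgn1-/- mESCs by 0.90 for Foxa2 (adjusted p = 0.203 in edgeR) and -0.35 for Pax6 (0.322), and from Hmgn2-/- mESCs by -0.22 for Eomes, none of which passed.

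Some of these calls were lost without 1 library or at a lower depth. Cdkn2b lost its call in Hmgn2-/- mESCs without WT replicate 2 (adjusted p = 0.0134), WT replicate 3 (0.0258), or Hmgn2-/- replicate 1 (0.0141) or 2 (0.0237), and in the double knockout without WT replicate 3 (0.0124) or double knockout replicate 2 (0.0112). With counts thinned to the depth of the smallest library, the calls of Cdkn2b in Hmgn2-/- (adjusted p = 0.0217) and of Pax6 in Hmgn1-/- mESCs (0.0144) were lost as well. Pax6 lost its call without WT replicate 3 (adjusted p = 0.0222) or Hmgn1-/- replicate 1 (0.0107), 2 (0.0297) or 3 (0.0124), and Eomes in Hmgn1-/- mESCs without Hmgn1-/- replicate 2 (0.0151) or 3 (0.0127).

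Gata4, Gata6 and Sox17 are also markers of the primitive endoderm, and that list moved with the knockouts. Of its 6 genes, 5 rose in Hmgn1-/-, 5 in Hmgn2-/- and 6 in double knockout mESCs (7.28%, 3.30% and 7.79% of all genes were called higher), with Dab2 the most abundant by mean, and 0 were at 0 counts in any library. The summed level was 10.9, 11.8 and 13.4 CPM in WT, 74.5, 61.6 and 62.2 in Hmgn1-/-, 92.5, 84.6 and 63.3 in Hmgn2-/- and 185, 186 and 173 CPM in Hmgn1-/-Hmgn2-/- mESCs. Sox7 was the one that did not pass in the single knockouts (log2 FC 0.59 and 0.75, adjusted p = 0.0394 and 0.0634 in edgeR). For Sox17 the limit set by the filter, given above, holds here as well. Fibroblast markers moved the other way, and 3 of the 3 tested of 5 (Thy1, the most abundant, Col1a1 and Col1a2) fell in each line, where 10.1%, 6.66% and 10.2% of all genes were called lower. Col1a2 was at 1.24 to 3.53 CPM in WT, 0.191 to 0.537 in Hmgn1-/-, 0.357 to 0.461 in Hmgn2-/- and 0.342 to 0.768 CPM in double knockout mESCs. It may have passed the filter only through WT, where it was high, so its fall may be partly set by that filter. The sum of the 5 markers was 20.2, 16.3 and 20.1 CPM in WT, 5.49, 5.21 and 5.50 in Hmgn1-/-, 5.30, 5.87 and 5.89 in Hmgn2-/- and 5.02, 7.86 and 6.60 CPM in Hmgn1-/-Hmgn2-/- mESCs, with Postn at 0 in 8 of 9 knockout libraries and Col3a1 at 0 in 1. The part of endoderm-like or fibroblast-like cells in the differences of Phf19, Eed, Jarid2, Bcor, Kdm6a and Bap1 was not tested.

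Pluripotency markers summed to 3684, 3790.4 and 3816 CPM in WT, 3833, 3887 and 4064 in Hmgn1-/-, 3467, 3788 and 4007 in Hmgn2-/- and 3462, 3790.2 and 3817 CPM in Hmgn1-/-Hmgn2-/- mESCs, with Pou5f1 the most abundant and 0 of 6 at 0. Klf4 rose in each line (log2 FC 0.93, 0.69 and 0.74), Esrrb rose in Hmgn1-/- (0.47) and double knockout mESCs (0.28) and was at 0.32 in Hmgn2-/- mESCs (adjusted p = 0.0124 in edgeR and 0.00162 in DESeq2), and Nanog fell in each (-0.32, -0.50 and -0.45). Nanog lost its call without Hmgn1-/- replicate 2 in Hmgn1-/- (adjusted p = 0.0112) and without WT replicate 3 in Hmgn2-/- mESCs (0.0117), and Esrrb lost its call in the double knockout without WT replicate 2 (0.0114), WT replicate 3 (0.0244) or double knockout replicate 2 (0.0240). In Hmgn2-/- mESCs Esrrb was called without Hmgn2-/- replicate 3 (0.00216). Genes of S phase and mitosis, a check on growth that bears on E2F-driven PRC2 genes, summed to 4227 to 4571 CPM over the 12 libraries. The sum was 4227 to 4366 CPM in WT, 4375 to 4527 in Hmgn1-/-, 4376 to 4571 in Hmgn2-/- and 4395 to 4431 CPM in double knockout mESCs. All knockout libraries thus lay above all WT libraries, by a margin of 4375 against 4366 CPM. The 8 genes did not move together. Their median log2 FC was -0.02, 0.02 and -0.01 in Hmgn1-/-, Hmgn2-/- and double knockout mESCs, and 3, 5 and 4 values were above 0. Mcm5 averaged 751 CPM in WT and 910, 920 and 885 CPM in these lines, so the rise of the sum leans on it. Of the 8 genes of this list, Mcm5 rose in Hmgn1-/- (0.28, adjusted p = 0.000815 in edgeR) and double knockout mESCs (0.24, 0.00284) and was at 0.30 in Hmgn2-/- mESCs (0.0200). Its calls were lost without WT replicate 3 (log2 FC 0.26 and 0.21) and, in the double knockout, without its replicate 2 (0.0230) or 3 (0.0111), and in Hmgn2-/- mESCs it was called without Hmgn2-/- replicate 1 (0.00843) or 3 (0.00902). With all libraries kept, Mcm5 was also called in Hmgn2-/- mESCs in DESeq2 (adjusted p = 0.00519) and in edgeR's single fit of 12 libraries (0.00166). The direct test between double knockout and Hmgn2-/- mESCs gave -0.06 for Mcm5 and -0.04 for Esrrb, and neither passed. Mki67 was at 0.17, 0.18 and 0.19 (adjusted p = 0.0366, 0.165 and 0.0138).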

How the data were processed

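The authors extracted RNA, selected poly-A transcripts, aligned reads to mm10 with STAR and deposited counts, whole numbers of reads per gene and library, without normalization; the counting program, annotation and strand are not stated. Counts were analysed in R 4.3.3 with edgeR 4.0.16: TMM factors, filterByExpr, and quasi-likelihood tests whose p values were adjusted by Benjamini-Hochberg over all genes tested, in 6-library fits for pairs of genotypes and in a 12-library fit for additivity. A call needs an adjusted p under 0.01. DESeq2 1.42.0 was an alternative, with other scalings, filters, a depth-thinned set, a replicate block and each library left out. Over 11555 genes, libraries of equal replicate number paired in Hmgn1-/- against WT (r = 0.284, 0.133 and 0.314) double knockout against WT (0.250, 0.213 and 0.187), Hmgn2-/- against Hmgn1-/- (0.392, 0.202 and 0.402) and double knockout against Hmgn2-/- (0.590, 0.165 and 0.477), so blocked values stand there where they change a call. In 2 comparisons a replicate was hardly more like its own number than another. These were Hmgn2-/- against WT (replicate 3, 0.0811 against 0.0672) and double knockout against Hmgn1-/- (replicate 2, 0.0636 against 0.0507). They, and therefore all 12 libraries, were not taken as paired, although the same number was the closer one there too. Lengths are of principal GENCODE transcripts. Named besides the 10 genes are list genes past a log2 FC of 1, the 2 of smallest p per list and comparison, and the 5 most like Phf19; Olig2, Pax6 and Eomes were added after their values were seen. The members and lists were chosen with earlier results of these data known. No library was left out.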

Additional observations from a re-analysis of the deposited data

Results flagged for a closer look

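Without a replicate block, the 10 genes held 0 differences between knockout lines or from additivity that passed in edgeR's test, and 2 (Phf19 and Ring1) passed an unadjusted p under 0.05 for additivity; DESeq2 also called 0. Differences tested directly passed for other genes described beside them. Between double knockout and Hmgn1-/- mESCs, primitive endoderm markers differed with log2 FC of 1.67 for Dab2, 1.18 for Gata4, 1.51 for Gata6, 1.36 for Pdgfra, 1.38 for Sox17 and 1.28 for Sox7. Between double knockout and Hmgn2-/- mESCs, Dab2 differed by 1.36, a call lost without double knockout replicate 2 (adjusted p = 0.0275) or 3 (0.0239) or Hmgn2-/- replicate 2 (0.0352). The other endoderm markers were higher than in Hmgn2-/- mESCs without overlap, at log2 FC of 0.91 for Gata4 (adjusted p = 0.0435), 1.14 for Gata6 (0.0410), 1.13 for Pdgfra (0.0435), 1.09 for Sox17 (0.0476) and 1.12 for Sox7 (0.0575). These 5 passed with replicate numbers as a block (adjusted p = 2.42e-05, 1.17e-05, 5.87e-06, 8.61e-05 and 0.000548 in edgeR) and in DESeq2 (1.08e-06, 6.87e-08, 2.10e-07, 6.91e-06 and 1.10e-05). Without Hmgn2-/- replicate 1, Gata4 (0.00835) and Sox7 (0.00212) passed, and without Hmgn2-/- replicate 3, Gata4 (0.00500), Gata6 (0.00202) and Pdgfra (0.00607).

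The double knockout also departed from the sum of the single knockouts on the log2 scale. Values were below it for Dab2 (-1.39), Gata4 (-1.64), Gata6 (-1.30), Pdgfra (-2.39), Sox17 (-2.27), Esrrb (-0.50), Klf4 (-0.87) and Olig2 (-0.91), and above it for Col1a1 (1.50), Col1a2 (3.23), Thy1 (1.94) and Hand1 (2.34). Sox17 and Col1a2 carry the limit of the filter here too. DESeq2 also called Bcor (0.67, adjusted p = 0.00277), Bap1 (-0.32, 0.00182), Nanog (0.38, 0.00510), Mcm5 (-0.34, 0.00200) and Cdkn2b (1.61, 0.00710). In edgeR without a block these did not pass (adjusted p = 0.0148, 0.0189, 0.0163, 0.0142 and 0.0255). With replicate numbers as a block, edgeR called Bcor (adjusted p = 0.00391), Bap1 (0.00580), Nanog (0.00775) and Mcm5 (0.00282) but not Cdkn2b. The block also brought calls of Perp (0.000611) and Jmjd4 (0.00842) for additivity. The call of Gata6 was lost (adjusted p in brackets) without Hmgn1-/- replicate 1 (0.0188), Hmgn1-/- replicate 2 (0.0128), double knockout replicate 1 (0.0118), double knockout replicate 3 (0.0154), Hmgn2-/- replicate 1 (0.0103), Hmgn2-/- replicate 2 (0.0179), WT replicate 1 (0.0211) or WT replicate 3 (0.0173). That of Col1a1 was lost without Hmgn1-/- replicate 1 (0.0217), Hmgn1-/- replicate 2 (0.0255), Hmgn1-/- replicate 3 (0.0162), double knockout replicate 1 (0.0117), double knockout replicate 2 (0.0274), double knockout replicate 3 (0.0230), Hmgn2-/- replicate 1 (0.0176), Hmgn2-/- replicate 2 (0.0106), Hmgn2-/- replicate 3 (0.0142), WT replicate 1 (0.0154) or WT replicate 3 (0.0165). That of Col1a2 was lost without Hmgn1-/- replicate 2 (0.0145), Hmgn1-/- replicate 3 (0.0118), double knockout replicate 1 (0.0110), double knockout replicate 2 (0.0208), Hmgn2-/- replicate 2 (0.0140) or WT replicate 3 (0.0130), and with counts thinned to the depth of the smallest library (0.0294). The causes of these departures were not tested.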

How the results depend on the processing

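For the 10 genes, 1072 of 1100 single values kept their side of the limit, 14 lost it, 14 gained it and 0 reversed, and 40 uncalled values changed sign. Of 3933 values for other named genes, 3743 kept their side, 73 lost it and 117 gained it. The share of all genes tested that were called is given in brackets after each count. The count of the 10 genes in Hmgn1-/- against WT mESCs (1) was 2 without the filter (16.3%) and 6 at an adjusted p under 0.05 (28.4%). It was 2 with a replicate block (24.4%), 0 with all 12 libraries in a single fit (15.0%), and 0 to 1 with 1 library left out. In Hmgn2-/- mESCs (0) it was 1 with the block (Phf19, adjusted p = 0.00912, against 9.50% of all genes) and 0 at an adjusted p under 0.05 (18.9% of all genes). In double knockout mESCs (2) it was 3 without the filter (16.5%), 3 at an adjusted p under 0.05 (29.0% of all genes) and 3 with the block (22.1%). It was 1 with at least 10 counts in every library (17.2%), 1 with all 12 libraries (15.7%), and 0 to 2 with 1 library left out. For additivity (0) it was 1 with the block (Phf19, log2 value 0.59, adjusted p = 0.00327, against 0.170 without), where 10.2% of all genes were called. Between knockout lines it was 0 in each alternative run. The share of all genes called against WT also moved with 1 library left out. It ran from 11.2% to 21.9% in Hmgn1-/-, 5.10% to 13.5% in Hmgn2-/- and 11.9% to 21.2% in double knockout mESCs. Where the replicate numbers paired the libraries, the block also brought calls of Perp (adjusted p = 0.000133) and Jmjd4 (0.00412) in double knockout against WT mESCs, and beside the values printed above it changed no other call of a named gene.

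Of the 33 other Polycomb genes, again with the share of all genes in brackets, the count in Hmgn1-/- mESCs (3) was 4 at an adjusted p under 0.05 (28.4%). It was 4 after thinning (16.6%), 5 with the block (24.4%) and 3 to 5 with 1 library left out. In Hmgn2-/- mESCs (1) it was 3 in DESeq2 (13.9%), 2 without the filter (9.66%) and 3 at an adjusted p under 0.05 (18.9%). It was 2 after thinning (9.54%), 3 with all 12 libraries (15.5%), and 0 to 3 with 1 library left out. In double knockout mESCs (3) it was 4 in DESeq2 (19.3%), 4 without the filter (16.5%) and 4 with the block (22.1%). It was 5 at an adjusted p under 0.05 (29.0%) and 2 to 5 with 1 library left out. Plain count ratios, not divided by length, were 5.74, 5.30, 5.81 and 5.82 for Ezh2 over Ezh1 and 9.79, 7.64, 8.48 and 9.14 for Rnf2 over Ring1 in WT, Hmgn1-/-, Hmgn2-/- and double knockout mESCs, which follows from the lengths. For the counts, the cause was not tested. Phf19 and Ring1 had the fewest reads, and Phf19 rested on 300 to 842 counts a library. Counting error, clone effects and shared reads of overlapping genes limit small differences.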
